A study of Mus musculus with 10 samples.

Results

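The Lyz1/Ccr2 cells of mouse inguinal fat, provisionally labelled monocyte-like, were 467 of the 10914 single cells in the count table. A cell was chosen by its own counts of unique molecular identifiers (UMIs): a sum of at least 2 over the 8 genes Lyz1, Ear2, Ccr2, Plbd1, Mcub, Csf2ra, Mpeg1 and Fcrls, a sum larger than that over 8 genes of resident macrophages (Cd163, Lyve1, Folr2, Cbr2, Mrc1, Cd209f, Fcna and C1qa), and less than 3% of its UMIs from the 5 stromal genes Dcn, Col1a1, Col1a2, Col3a1 and Lum. The study asked what the loss of BBS8, a subunit of the BBSome complex that moves cargo through the primary cilium, does to the cells of white fat. The stromal vascular fraction, which is everything in the digested fat pad except the adipocytes, came from a lean Bbs8-/- (KO) mouse and a Bbs8+/+ (WT) mouse, both 7 weeks old, and was profiled with Seq-Well S3, a microwell method that counts UMIs at the 3′ ends of transcripts. The knockout is not limited to a cell type, and no cell type was sorted. The labels list 5 samples per genotype, and the table has 5 barcode sets per genotype that were not matched to them one by one. The sets carry the codes KO5, KO6, WT3 and WT4, whose meaning the labels do not give. The methods describe the use of 2 arrays per sample, and the series text names 1 mouse per genotype. The spread over sets was taken as technical, genotype and mouse cannot be told apart, and no difference between genotypes was tested. Intervals below are exact 95% intervals and cover counting error only.

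Monocytes are made in bone marrow, circulate in blood and enter tissues along a gradient of Ccl2, which their receptor Ccr2 senses. In fat they give rise to macrophages and to antigen-presenting cells that carry MHC class II, while a resident macrophage pool with Lyve1, Cd163 and Mrc1 is maintained largely without them. Lysozyme, which cleaves bacterial cell walls, is encoded in mice by the neighbouring genes Lyz1 and Lyz2, of which Lyz2 is the general myeloid gene.

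The table held 3144195 UMIs of 8985 Bbs8-/- cells and 715989 UMIs of 1929 Bbs8+/+ cells. Ttc8, which encodes BBS8, had 0 UMIs in the Bbs8-/- cells, which allows up to 0.954 CPM (UMIs of a gene scaled to a common total per library), and 5 UMIs in the Bbs8+/+ cells. The Lyz1/Ccr2 cells had a median of 341 UMIs in the 356 Bbs8-/- cells and 343 UMIs in the 111 Bbs8+/+ cells, against 248 and 275 UMIs in all other cells. Their summed depth was 176989 UMIs in Bbs8-/- and 49923 UMIs in Bbs8+/+ cells, so a count of 0, which allows 3 UMIs, bounds a gene at 17.0 CPM in Bbs8-/- but only at 60.1 CPM in Bbs8+/+ cells. Of the Lyz1/Ccr2 cells, 1 had a barcode also found in another 1 or 2 sets and 2 had a barcode found in more than 3 sets. UMIs of other cells were present: 21.6% (17.5 to 26.3%) of the Bbs8-/- and 9.01% (4.41 to 15.9%) of the Bbs8+/+ Lyz1/Ccr2 cells had at least 2 UMIs from a T cell or a B cell list, and T cell and B cell genes were also the higher ones in the Bbs8-/- cells outside the class. Doublets were not removed, and the shares and the genotype ratios of 14 gene lists were also computed without these 87 cells.

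The 8 marker genes chose the cells, so their levels describe the choice and test nothing. Lyz1 had 4972 CPM in Bbs8-/- and 6690.3 CPM in Bbs8+/+ Lyz1/Ccr2 cells and was found in 52.9% of them, and 77.0% of all Lyz1 UMIs of the table fell in these cells. Mpeg1, which encodes the pore-forming perforin-2 of phagocytes, followed with 1921 and 1442 CPM, Ccr2 with 1497 and 1643 CPM, and the Fc receptor-like scavenger gene Fcrls with 1192 and 1703 CPM. Ear2, an eosinophil-associated ribonuclease gene, the GM-CSF receptor subunit Csf2ra, the phospholipase-like Plbd1 and the mitochondrial calcium channel subunit Mcub lay between 288 and 861 CPM. In B cells and T cells the highest level of any of the 8 genes was 112 CPM. A Lyz1 UMI was seen in 2.46% of the Bbs8-/- B cells at a median of 306 UMIs. Both classes leave out cells chosen by this rule or as resident macrophages, so the low levels there partly describe the choice too.

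**Figure D1:**
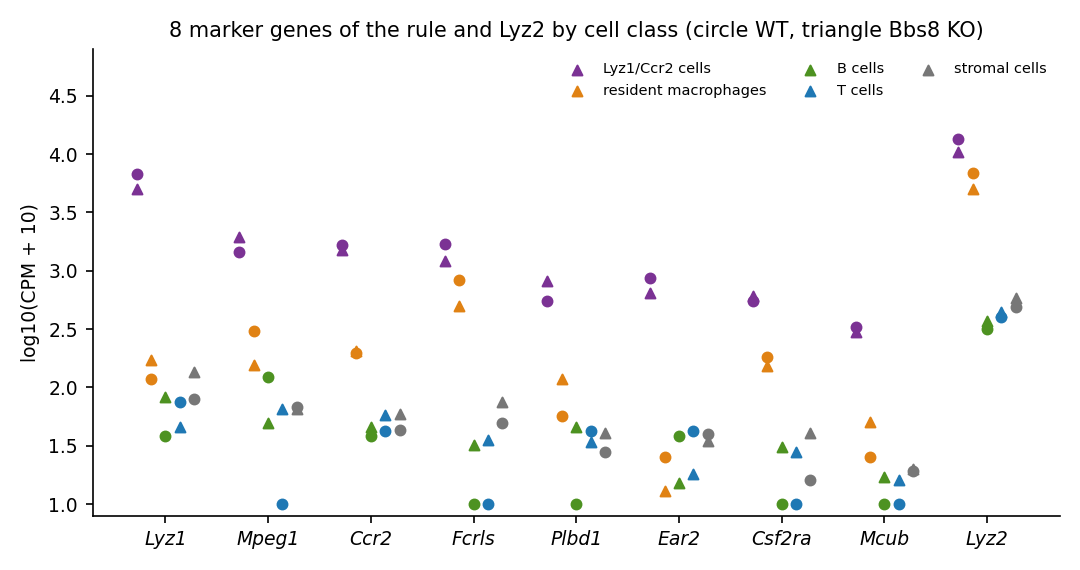
Level of the 8 marker genes and of Lyz2 in Lyz1/Ccr2 cells, resident macrophages, B cells, T cells and stromal cells, as log10(CPM + 10), with a circle for Bbs8+/+ and a triangle for Bbs8-/- cells. The 8 markers are high in the Lyz1/Ccr2 cells because they chose them, while Lyz2, which the rule did not use, is also at 5019 to 6886 CPM in resident macrophages.

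The choice rests on few UMIs per cell. The marker sum was exactly 2 in 174 cells and at least 5 in 162 cells, and 132 cells carried only 1 of the 8 genes. Cells with a sum of 2, just inside the limit, had 5354 CPM of Lyz2, whereas the 501 cells with a sum of 1 that met the other conditions had 2084 CPM and the cells with a sum of at least 5 had 16221 CPM. Depth moved with this order, from a median of 263.5 UMIs at a sum of 2 to 586 UMIs at 5 or more, and the B cell list was 2677 CPM at a sum of 2 against 974 CPM. A further 29 cells tied with the macrophage sum, 118 had the larger macrophage sum and 69 failed the stromal limit. When 1 marker was left out and cells were chosen by the other 7, the marker left out was still 4.87 to 27.1 times as high in the chosen cells as outside them, over the 8 markers and both mice, with the largest values for Lyz1 (26.0 times in Bbs8-/- and 27.0 times in Bbs8+/+ cells) and Ear2 (27.1 and 17.7 times). The 8 genes were chosen as a set with results of these data known, so these values also describe the choice.

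The label of monocyte-like was only partly borne out by markers outside the rule. A list of 14 mononuclear phagocyte genes reached 20109 CPM in Bbs8-/- and 25099 CPM in Bbs8+/+ cells, above the 12973 and 16353 CPM of resident macrophages, although 0 of the 14 were at least 1 higher on the log2 scale in both mice and 1 was at least 1 lower, and 6 neutrophil genes in the table had only 5 UMIs in Bbs8-/- and 1 UMI in Bbs8+/+ cells. Of the genes that define blood monocytes, Ly6c2 had 339 CPM in Bbs8-/- and 200.3 CPM in Bbs8+/+ cells, the cytoplasmic protein gene Plac8 had 299 CPM in Bbs8-/- and 240.4 CPM in Bbs8+/+ cells, and Chil3, which encodes the chitinase-like Ym1, had only 8 and 2 UMIs. Set KO5_p3 held 35 of the 60 Bbs8-/- Ly6c2 UMIs, and without it the level was 179 CPM, below the Bbs8+/+ value. Without set WT4_p3 the Bbs8+/+ level of Plac8 was 118 CPM, from 5 UMIs. Without the cells holding 2 T cell or B cell UMIs, Ly6c2 had 151 CPM in Bbs8-/- and 209 CPM in Bbs8+/+ cells, from 19 and 9 UMIs. Plac8 then had 214 CPM in Bbs8-/- and 209 CPM in Bbs8+/+ cells, from 27 and 9 UMIs. Fn1, a matrix gene, gave 397 of the 971 Bbs8-/- and 171 of the 361 Bbs8+/+ UMIs of the 15-gene classical monocyte list. That list summed to 5486 CPM in Bbs8-/- and 7231 CPM in Bbs8+/+ cells, against 4973 and 4539 CPM in resident macrophages, log2 ratios of 0.14 (0.03 to 0.26) and 0.67 (0.45 to 0.90), and 3 of its 10 genes measured in both classes were at least 1 higher in both mice and 1 at least 1 lower. Over all such genes, 1.19% were at least 1 higher in both mice and 3.43% at least 1 lower. Cx3cr1, a receptor of patrolling monocytes and macrophages, had 19 UMIs in Bbs8-/- and 0 UMIs in Bbs8+/+ Lyz1/Ccr2 cells, and 0 UMIs in all 1929 Bbs8+/+ cells. The 8 MHC class II genes, in contrast, summed to 31397 CPM in Bbs8-/- and 23236 CPM in Bbs8+/+ cells. The cells are called by their genes, Lyz1/Ccr2 cells, below. A Lyz1 UMI was found in 52.9% and a Ccr2 UMI in 38.1% of them, so the name does not mean that each cell had both.

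Because Lyz1 was the marker with the most UMIs and its neighbour Lyz2 does not enter the rule, the coding sequences show how far reads can tell the genes apart. They are printed 5′ to 3′ from the GENCODE vM21 transcripts of build GRCm38, with the bases that differ between both genes in capitals, for the first 300 bases, which hold most of the differences. Both genes lie on the minus strand of chromosome 10, Lyz1 at chr10:117287797-117292868 and Lyz2 at chr10:117277331-117282321, 5475 bases apart.
Lyz1: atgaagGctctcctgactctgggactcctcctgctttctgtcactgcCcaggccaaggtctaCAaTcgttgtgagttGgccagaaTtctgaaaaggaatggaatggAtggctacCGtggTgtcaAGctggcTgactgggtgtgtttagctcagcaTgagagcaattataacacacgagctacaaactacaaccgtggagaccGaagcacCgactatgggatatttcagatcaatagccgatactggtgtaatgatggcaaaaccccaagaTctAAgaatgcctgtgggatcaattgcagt
Lyz2: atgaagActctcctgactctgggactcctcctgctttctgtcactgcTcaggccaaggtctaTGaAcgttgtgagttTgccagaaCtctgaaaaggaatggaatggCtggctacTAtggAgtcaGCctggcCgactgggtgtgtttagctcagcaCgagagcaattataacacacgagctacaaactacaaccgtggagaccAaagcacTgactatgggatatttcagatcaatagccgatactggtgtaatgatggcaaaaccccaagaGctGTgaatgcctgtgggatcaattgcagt
The 447-base coding sequences differ at 22 positions, 20 of them in the stretch shown, and are 95.1% identical, with a longest shared run of 118 bases. Within the last 500 bases of the transcripts, where 3′ reads fall, 11.4% of the 61-base windows of Lyz1, the length of the sequencing read, also occur in Lyz2. The corresponding share was 29.1% for Ear2 with other Ear genes, 28.2% for Ly6c2 with Ly6c1, 23.7% for Ly6c1 with Ly6c2 and Ly6a and 18.4% for H2-DMb1 with H2-DMb2, and 0% for Ccr2, Plbd1, Mcub, Mpeg1, Fcrls and Retnla, so the levels of Lyz1, Lyz2, Ear2, Ly6c1, Ly6c2 and H2-DMb1 are the less certain ones. Lyz2 was 5019 and 6886 CPM in Bbs8-/- and Bbs8+/+ resident macrophages, where Lyz1 was 163 and 109 CPM. The rule itself holds this Lyz1 level down by excluding cells with many Lyz1 UMIs. These levels therefore cannot show how well the counts separated the genes.

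Among genes outside the rule, the transcripts with the highest ratios over all other cells were Lyz2, MHC class II genes and myeloid secreted or signalling genes. These log2 ratios, with 50 CPM added to each level, describe the cells that the rule picked and were not tested. Lyz2 was 3.07 higher on the log2 scale in the Bbs8-/- and 3.25 higher in the Bbs8+/+ mouse, the largest value by the lower of both mice. The chemokine gene Ccl9 followed with 2.36 and 2.61, and its neighbour Ccl6 had 2.11 and 2.40. H2-Eb1 (2.36 and 2.67) and H2-Ab1 (2.34 and 2.80) encode chains that present peptides, and H2-DMa (2.16 and 2.89) encodes a chain of the molecule that loads them. Retnla, which encodes the secreted resistin-like molecule RELMα, had 2.35 and 3.18. The other leading genes were the signalling adaptor Tyrobp, the lysosomal activator Gm2a, the leukotriene-pathway gene Alox5ap, the galectin Lgals3, Rassf4, and Cybb of the NADPH oxidase, each between 2.01 and 2.80. Ratios over resident macrophages were smaller for some of these genes. Over those cells Ccl6 had -0.04 in Bbs8-/- and -0.13 in Bbs8+/+ cells, and Retnla 0.23 and 0.84.

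By level, leaving out rule, ribosomal, mitochondrial and sex-linked genes and Gm42418, Actb was the most abundant transcript in Bbs8-/- cells, followed by H2-Ab1, and Retnla was the most abundant in Bbs8+/+ cells, followed by Lyz2. H2-Ab1 had 14916 CPM in Bbs8-/- and 8994 CPM in Bbs8+/+ cells, Lyz2 had 10515 CPM in Bbs8-/- and 13621 CPM in Bbs8+/+ cells, and Retnla had 5899 CPM in Bbs8-/- and 17146 CPM in Bbs8+/+ cells. H2-Eb1 (7012 and 4447 CPM), H2-Aa (4311 and 3826 CPM) and the invariant chain Cd74 (3051 and 3826 CPM) were next among immune genes. A Lyz2 UMI was found in 62.1% of the Bbs8-/- and 82.0% of the Bbs8+/+ cells. The shares were 11.5% and 10.7% in T cells, a class that leaves out Lyz1/Ccr2 cells and resident macrophages. After each cell was thinned to 200 UMIs, which left 305 Bbs8-/- and 96 Bbs8+/+ cells, the shares were 57.7% and 79.2%.

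Against resident macrophages of the same mouse (768 Bbs8-/- and 152 Bbs8+/+ cells that passed the mirror-image rule), the Lyz1/Ccr2 cells had the higher MHC class II and Fn1 levels and the lower levels of macrophage genes in both mice. Of 2102 genes outside the rule with at least 10 UMIs in both classes together in each mouse, 1.19% were at least 1 higher on the log2 scale in both mice and 3.43% at least 1 lower, and the median gene was at 0.01 in Bbs8-/- and 0.03 in Bbs8+/+ cells. Fn1, a matrix glycoprotein gene, had a log2 ratio of 2.10 in the Bbs8-/- and 3.47 in the Bbs8+/+ mouse. Lsp1, an actin-binding leukocyte protein gene, had 2.01 in the Bbs8-/- and 2.58 in the Bbs8+/+ mouse. For Ly6c2 the values were 2.07 in the Bbs8-/- and 1.93 in the Bbs8+/+ mouse, from 60 and 10 UMIs. Gm2a (1.80 in the Bbs8-/- and 2.00 in the Bbs8+/+ mouse), Lgals3 (1.39 in the Bbs8-/- and 1.54 in the Bbs8+/+ mouse), Olfm1, Itpr1, Slamf9, Alcam and Cd44 were also among the 12 highest by the mouse nearer 0. Ly6c2 rested on single sets: its Bbs8-/- ratio was 1.20 without set KO5_p3, 2.72 without KO6_p3 and 1.01 without the cells holding 2 T cell or B cell UMIs, and its Bbs8+/+ ratio was 1.18 without WT4_p2. The Bbs8+/+ ratio of Lgals3 was 0.85 without WT3_p2, that of Lsp1 4.06 without WT4_p2, and those of Slamf9 and Alcam 1.00 without WT3_p2 and 0.98 without WT3_p3.

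All 8 MHC class II genes were in the table, 7 had enough UMIs, and 4 of these 7 were at least 1 higher in both mice, with list medians of 1.98 in Bbs8-/- and 1.14 in Bbs8+/+ cells. The 4 were H2-Ab1 (against 3209.5 and 3715 CPM in the Bbs8-/- and Bbs8+/+ macrophages), H2-Eb1 (2.26 in the Bbs8-/- and 1.14 in the Bbs8+/+ mouse), H2-DMa (2.10 in the Bbs8-/- and 1.61 in the Bbs8+/+ mouse) and Cd74 (1.83 in the Bbs8-/- and 1.33 in the Bbs8+/+ mouse). H2-Aa had 1.90 in the Bbs8-/- and 0.94 in the Bbs8+/+ mouse, and Ciita, the regulator that switches on the class II genes, had 1.51 in the Bbs8-/- and 0.72 in the Bbs8+/+ mouse. At the other end, 10 of 11 measured genes of the 14-gene resident macrophage list were at least 1 lower in both mice, a direction that the rule helps to set because it excludes cells rich in macrophage genes. The lowest were the chemokine gene Ccl8 (-3.17 in the Bbs8-/- and -3.69 in the Bbs8+/+ mouse), the scavenger receptor Stab1 (-3.14 in the Bbs8-/- and -3.28 in the Bbs8+/+ mouse, and -4.17 in the latter without set WT4_p2), the selenium carrier Selenop (-3.08 in the Bbs8-/- and -3.45 in the Bbs8+/+ mouse) and, outside the list, the histidine ammonia-lyase gene Hal (-3.19 in the Bbs8-/- and -3.08 in the Bbs8+/+ mouse). In Bbs8-/- and Bbs8+/+ Lyz1/Ccr2 cells, Ccl8 had 20 and 3 UMIs, Stab1 9 and 2 UMIs and Hal 19 and 0 UMIs. The Bbs8+/+ value of Hal therefore rests on the 50 CPM added to each level. Maf (-2.38 in the Bbs8-/- and -3.05 in the Bbs8+/+ mouse), a transcription factor gene of macrophages, and the lipid carrier gene Apoe (-2.63 in the Bbs8-/- and -2.32 in the Bbs8+/+ mouse) were lower too. Of 14 lysosome genes, 5 were at least 1 lower in both mice, among them the proteases Ctsb (-1.51 in the Bbs8-/- and -2.17 in the Bbs8+/+ mouse) and Ctsc (-1.18 in the Bbs8-/- and -1.42 in the Bbs8+/+ mouse), and 0 were at least 1 higher.

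**Figure D2:**
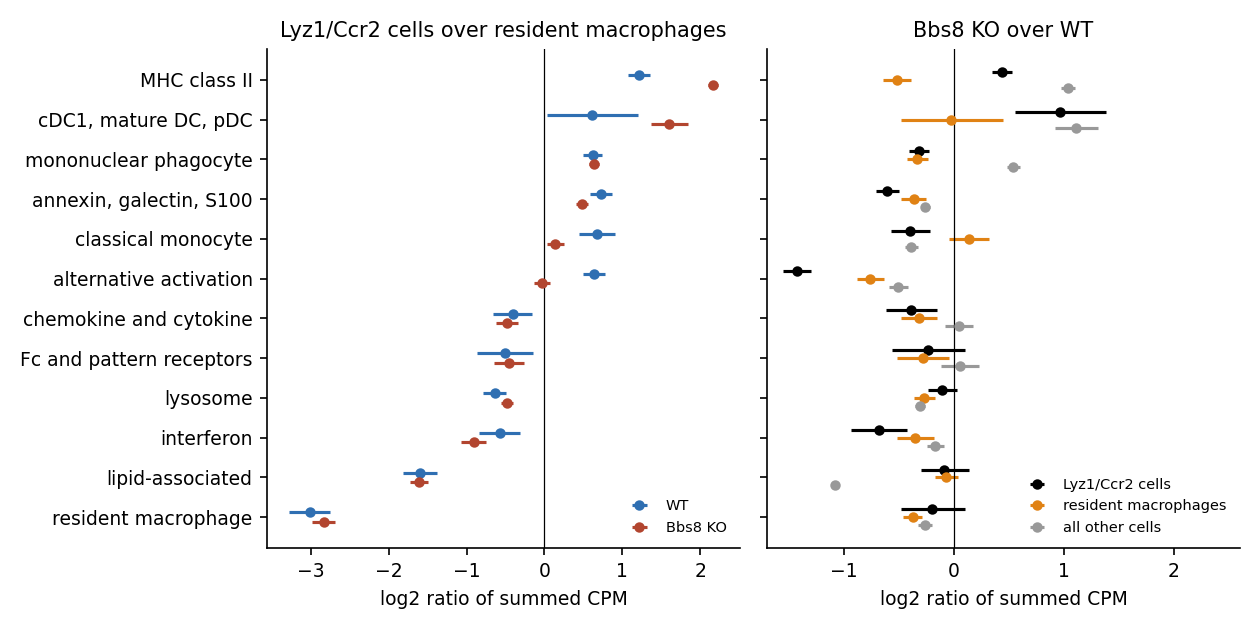
Left, log2 ratio of summed CPM in Lyz1/Ccr2 cells over resident macrophages for 12 gene lists, blue for Bbs8+/+ and red for Bbs8-/-; right, Bbs8-/- over Bbs8+/+ within Lyz1/Ccr2 cells (black), resident macrophages (orange) and all other cells (grey). Bars are exact 95% counting intervals from 1 mouse per genotype. MHC class II lies right of 0 on the left in both mice, and the alternative activation list lies furthest left in the Lyz1/Ccr2 cells on the right, at -1.43.

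The Lyz1/Ccr2 cells took a smaller share of the Bbs8-/- than of the Bbs8+/+ cells, beyond counting error. They were 356 of 8985 Bbs8-/- cells, 3.96% (3.57 to 4.39%), and 111 of 1929 Bbs8+/+ cells, 5.75% (4.76 to 6.89%), a difference of -1.79 percentage points (-2.99 to -0.708). The share was 2.82, 4.24, 4.44, 3.67 and 4.65% in the 5 Bbs8-/- sets and 7.83, 5.12, 8.16, 5.08 and 4.83% in the 5 Bbs8+/+ sets. The lowest Bbs8+/+ set lay just above the highest Bbs8-/- set, so the sets did not overlap, and the sets of a genotype share 1 mouse. The cells were also counted within myeloid cells. Of the Lyz1/Ccr2 cells and resident macrophages together, they were 31.7% (29.0 to 34.5%) of 1124 Bbs8-/- and 42.2% (36.2 to 48.4%) of 263 Bbs8+/+ cells, a difference of -10.5 points (-17.3 to -3.87). Here the sets overlapped, with 28.3 to 38.6% in Bbs8-/- and 36.2 to 56.4% in Bbs8+/+ sets. Resident macrophages themselves were 8.55% (7.98 to 9.14%) and 7.88% (6.72 to 9.17%) of the cells.

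**Figure D3:**
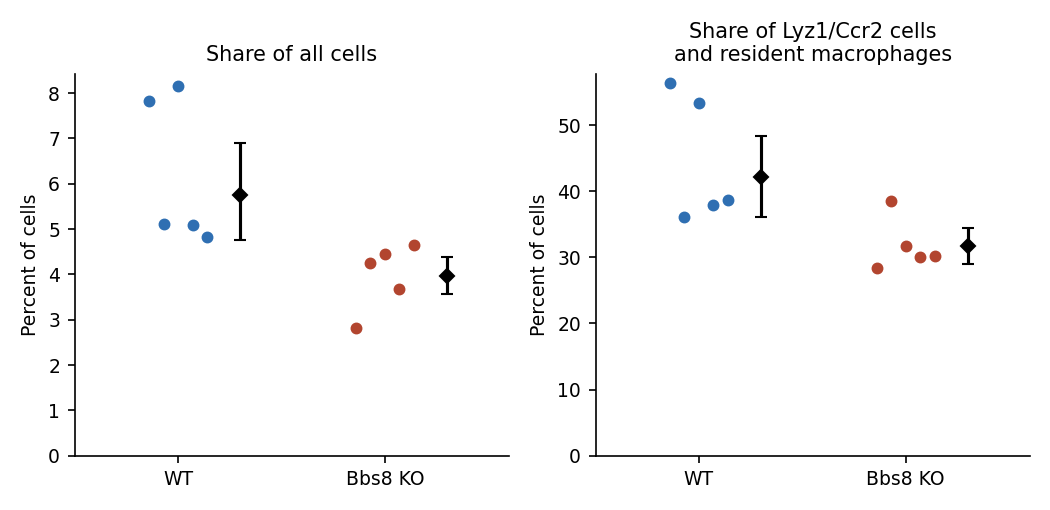
Percent of all cells (left) and of Lyz1/Ccr2 cells plus resident macrophages (right) that were Lyz1/Ccr2 cells, with a point for each barcode set and a black diamond for the pooled mouse with its exact 95% interval. On the left the Bbs8+/+ sets lie above the Bbs8-/- sets without overlap, and on the right 1 Bbs8-/- set at 38.6% reaches into the Bbs8+/+ range.

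Depth moved with these shares. When all cells were cut into 5 bins of equal size by UMIs, the share of Lyz1/Ccr2 cells went from 2.18% in the shallowest to 7.62% in the deepest Bbs8-/- bin and from 3.85% to 8.96% in Bbs8+/+ bins. In each of the 5 bins the Bbs8-/- share was the lower one, by the least in the third bin (3.73 against 4.04%). With all cells thinned to 200 UMIs the difference was -1.48 points, and without the cells holding 2 T cell or B cell UMIs it was -2.13 points. A marker sum of at least 1 in place of 2 shrank it to -0.561 points.

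Between genotypes, Retnla differed most among the 15 most abundant transcripts of the Lyz1/Ccr2 cells. Its level was 6846, 5701, 4795, 7078 and 5698 CPM in the 5 Bbs8-/- barcode sets and 14185, 18911, 21879.9, 18190.3 and 12739 CPM in the 5 Bbs8+/+ sets. All 5 Bbs8-/- sets were below all 5 Bbs8+/+ sets. Genotype ratios of single genes have 50 CPM added to both levels, which draws low genes toward 0, whereas the interval in parentheses is that of the ratio of UMIs with nothing added. The log2 ratio of Bbs8-/- over Bbs8+/+ was -1.53 (-1.67 to -1.41), and without the cell with the most Retnla UMIs in each mouse, which held 55 and 128 UMIs, it was -1.42. In resident macrophages the ratio was -0.91 and in all cells outside the Lyz1/Ccr2 class -0.70, so the lower Bbs8-/- level was not limited to these cells. A Retnla UMI was found in 158 of 356 Bbs8-/- cells, 44.4% (39.1 to 49.7%), and in 76 of 111 Bbs8+/+ cells, 68.5% (59.0 to 77.0%). In T cells, which should lack it and leave out Lyz1/Ccr2 cells and resident macrophages, the shares were 10.8% and 9.33% at medians of 313 and 297 UMIs. After thinning to 200 UMIs, the shares of Lyz1/Ccr2 cells were 34.4% and 70.8%. Retnla alone set the ratio of the 8-gene alternative activation list, -1.43 (-1.56 to -1.31) by summed UMIs, whose median over its 3 tested genes had the other sign, 0.24, since the lectin genes Clec10a and Mgl2 had 0.55 and 0.24.

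Across the 2050 genes with at least 20 UMIs in the Lyz1/Ccr2 cells, 6.63% were at least 1 higher on the log2 scale in Bbs8-/- and 3.56% at least 1 lower, with a median of 0.03. TMM scaling, which moves ratios with nothing added up by 0.16, made these shares 9.27% and 2.39%. With 1 set left out the share at least 1 higher ran up to 12.7%, without set WT4_p2. The levels of a gene did not overlap between the sets of the genotypes in 2.68% of genes with Bbs8-/- higher and 0.976% with Bbs8+/+ higher.

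The MHC class II genes had no common ratio between genotypes. Of 7 tested genes, 0 passed a log2 ratio of 1 in either direction, and the list median was 0.17. H2-Ab1 was 14547, 13179, 15192, 15825 and 15676 CPM in the 5 Bbs8-/- barcode sets and 8179.8, 10842, 8052, 7276 and 13281 CPM in the 5 Bbs8+/+ sets. Only the highest Bbs8+/+ set reached the Bbs8-/- range. H2-Ab1 had a log2 ratio of 0.73 (0.58 to 0.88) and H2-Eb1 of 0.65 (0.45 to 0.87), while H2-Aa (0.17), H2-DMa (-0.01), Cd74 (-0.32, interval -0.57 to -0.08) and H2-DMb1 (-0.66, interval -1.29 to -0.11) had smaller or negative ratios. Outside the class, where B cells are more frequent in the Bbs8-/- table, H2-Ab1 had 1.19, and in resident macrophages -0.21. The part of free RNA from B cells in the H2-Ab1 difference was not tested. The summed list had a log2 ratio of 0.43 (0.34 to 0.53), and 0.62 without the cells holding 2 T cell or B cell UMIs.

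**Figure D4:**
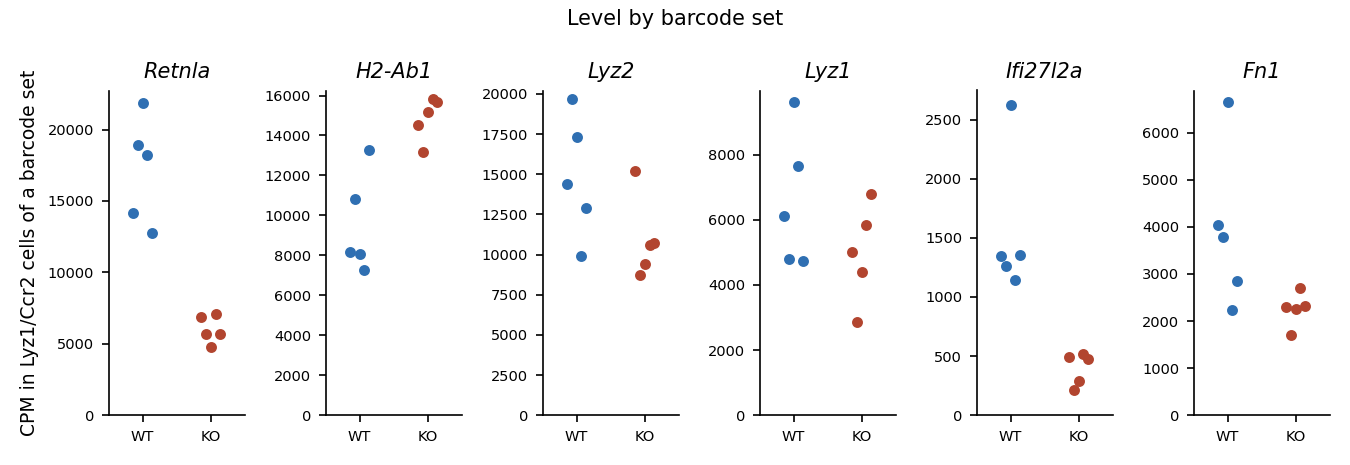
Level in CPM of Retnla, H2-Ab1, Lyz2, Lyz1, Ifi27l2a and Fn1 in the Lyz1/Ccr2 cells of each of 5 barcode sets per genotype. The sets of Retnla and Ifi27l2a do not overlap between genotypes, while those of Lyz1, which took part in the choice of cells, overlap widely.

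Lyz2 was 15222, 8698, 9399.9, 10588 and 10724 CPM in the 5 Bbs8-/- barcode sets and 14392, 19667, 17329, 9927 and 12874 CPM in the 5 Bbs8+/+ sets, which overlap, and its log2 ratio was -0.37 (-0.50 to -0.24). Fn1 had -0.60 (-0.87 to -0.34), and the chemokine genes Ccl6 and Ccl9 had -0.42 (-0.72 to -0.13) and -0.46 (-0.91 to -0.05). As CPM, each of these was lower in the Bbs8-/- cells beyond counting error, by less than a factor of 2. TMM scaling and DESeq2 size factors move genotype ratios with nothing added up by 0.16 and 0.15. Either shift is larger than the distance from 0 of the upper limits of Ccl6 and Ccl9. In resident macrophages Lyz2 had -0.45 and Ccl6 -0.51, but Fn1 had 0.77, and in all other cells Fn1 had -0.78. The 8 rule genes summed to a ratio of -0.21 (-0.33 to -0.08), and 0 of them passed 1 in either direction.

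Ifi27l2a, an interferon-induced gene, also had sets that did not overlap, with 495, 212, 285, 518 and 473 CPM in the 5 Bbs8-/- barcode sets and 1346, 1261, 2626, 1143 and 1355 CPM in the 5 Bbs8+/+ sets. Its log2 ratio was -1.74 (-2.37 to -1.37), against -0.74 in resident macrophages and -0.47 in all other cells. Of the 6 tested genes of the 15-gene interferon list, 2 were at least 1 lower in Bbs8-/- cells (Ifi27l2a and the transcription factor Irf7, -1.38, or -0.91 without set WT3_p3) and 1 at least 1 higher (the tetherin gene Bst2, 1.43), from 15 and 15 UMIs of Irf7 and 34 and 2 UMIs of Bst2. Both Bbs8+/+ Bst2 UMIs lay in set WT4_p2, and without it the Bbs8-/- level was at least 1.96-fold higher. The summed list had a log2 ratio of -0.69 (-0.94 to -0.43), -0.74 to -0.58 with 1 set left out, and its tested genes a median of -0.53.

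The cycling list of 8 genes summed to 1294 CPM in Bbs8-/- and 2644 CPM in Bbs8+/+ cells, a log2 ratio of -1.03 (-1.35 to -0.71), against -0.08 in resident macrophages and 0.27 in all other cells. The list ratio lay above -1 without set KO5_p3 (-0.87), KO6_p1 (-0.92), WT3_p1 (-0.80) or WT3_p2 (-0.96), and without the cells holding 2 T cell or B cell UMIs (-0.86). Of its 3 tested genes, the DNA topoisomerase gene Top2a was at least 1 lower (-1.48, interval -2.52 to -0.93), and Mki67, a marker of dividing cells, had -0.97 (-1.77 to -0.39) and the tubulin gene Tubb5 -0.64 (-1.13 to -0.20). A UMI of the list was present in 27.8% of Bbs8-/- and 37.8% of Bbs8+/+ cells. Top2a was read in 16 and 12 cells, and its ratio ran from -1.74 to -0.94 when 1 set was left out, the latter without set WT3_p1. Free RNA was not separated from expression here.

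The 13-gene annexin, galectin and S100 list, which also holds thymosins and Crip1, summed to 13035 CPM in Bbs8-/- and 19851 CPM in Bbs8+/+ cells, a log2 ratio of -0.61 (-0.71 to -0.50), and 1 of 12 tested genes passed -1. That gene was Crip1, a zinc-binding LIM protein gene, with -1.15 (-1.52 to -0.85). Its ratio was -0.99 without set WT3_p2 and -0.95 without the cells holding 2 T cell or B cell UMIs. The list median was -0.38, and the actin gene Actb, outside the list, had 0.38 (0.26 to 0.51). The actin-sequestering Tmsb4x had -0.63 (-0.80 to -0.47), S100a10 had -0.79 (-1.31 to -0.35), Anxa2 had -0.74 (-1.28 to -0.28) and the complement factor properdin, Cfp, had -0.97 (-1.34 to -0.65). Anxa5 (0.55) and Lgals1 (0.48) had positive ratios with intervals that span 0. In resident macrophages the list ratio was -0.37.

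The 12 genes with the highest Bbs8-/- over Bbs8+/+ ratio among those whose interval excluded 0 were Ly6c1, Dpp4, Atp1b1, Ergic3, Plxnc1, Ms4a1, Chp1, Rtn3, Relt, Stk17b, Atp5j and Phrf1, and 10 of them had 0 UMIs in the Bbs8+/+ Lyz1/Ccr2 cells. Their fold is a lower bound against 3 UMIs in the class. Ly6c1, an endothelial and stromal surface gene, had 39 UMIs in Bbs8-/- cells and was at least 3.67-fold higher, the axon guidance receptor gene Plxnc1 had 45 and 1 UMIs, and the B cell gene Ms4a1 with 29 UMIs at least 2.73-fold. Without the cells holding 2 T cell or B cell UMIs, the log2 ratio of Ms4a1 went from 2.10 to 1.18. The T cell list was 1006 CPM in Bbs8-/- and 401 CPM in Bbs8+/+ cells and the B cell list 1661 CPM in Bbs8-/- and 881 CPM in Bbs8+/+ cells within the class, and in all other cells their log2 ratios were 1.78 and 1.85. Lymphocyte genes were higher in Bbs8-/- cells inside and outside the class. Stromal genes were higher in Bbs8-/- cells inside it and in resident macrophages. The 7-gene stromal list outside the rule had 2486 CPM in Bbs8-/- and 1542 CPM in Bbs8+/+ cells, a log2 ratio of 0.69 (0.34 to 1.06), against -0.85 in all other cells and 0.79 in resident macrophages, with Sparc, a matrix protein gene, at 1.35 (0.77 to 2.22). By set that list ran from 1982 to 2911 CPM in Bbs8-/- and from 525 to 4066 CPM in Bbs8+/+ cells, and its ratio was 1.17 without set WT4_p3 and 0.54 without the cells holding 2 T cell or B cell UMIs. The part of lymphocyte and stromal RNA in the genes that were higher in Bbs8-/- cells was not tested.

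Among dendritic cell genes, Irf8, a transcription factor of monocyte and dendritic lineages, had 718 CPM in Bbs8-/- and 280.4 CPM in Bbs8+/+ cells, a log2 ratio of 1.22 (0.56 to 2.27). Siglech, a plasmacytoid dendritic cell and microglia lectin, had 509 CPM in Bbs8-/- and 180.3 CPM in Bbs8+/+ cells (1.28, interval 0.51 to 2.67), and Flt3, the receptor that maintains dendritic cells, had 21 and 0 UMIs, at least 1.97-fold higher. Flt3 belongs to a 9-gene list of cDC2 dendritic cells. Of its 5 tested genes 1 passed 1 and 0 passed -1, with a median of 0.55. The summed cDC2 list was below resident macrophages, by log2 ratios of -0.47 in Bbs8-/- and -1.26 in Bbs8+/+ cells. Of 6 tested genes of the 13-gene list of cDC1, mature and plasmacytoid dendritic cells, 3 passed 1 and 0 passed -1, with a list median of 1.04. Set KO5_p3 held 51 of the 127 Bbs8-/- Irf8 UMIs, 46 of the 90 Siglech UMIs and 11 of the 21 Flt3 UMIs. Without it the ratio of Irf8 was 0.85 and that of Siglech 0.67, and without the cells holding 2 T cell or B cell UMIs 0.89 and 0.93, all below 1. The bound of Flt3 was 1.19-fold without KO5_p3 and 1.21-fold without WT4_p2. The third gene past 1, Wdfy4, had 1.17, or 0.60 without set KO6_p3. Without the Bbs8+/+ set WT4_p2 the ratios of Irf8 and Siglech were 2.09 and 1.92. The genotype ratio of the summed 13-gene list was 1.11 in all other cells and -0.03 in resident macrophages.

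Among the lowest ratios, BC018473 had 0 UMIs in Bbs8-/- and 23 UMIs in Bbs8+/+ cells, at least 27.2-fold lower, and it had 0 of 3144195 UMIs in all Bbs8-/- cells against 178 UMIs in all Bbs8+/+ cells, so this difference is one of the whole table. The translocon gene Sec61a1 (-1.68, interval -2.81 to -1.17), the mitochondrial protein gene Tspo (-1.44, interval -2.33 to -0.92), Anp32b (-1.46), Fam111a (-1.49, interval -2.60 to -0.94), Stag1, Gm10036, Zfas1 and Hist1h1c completed the 12 with Retnla, Ifi27l2a and Top2a. Stag1, Zfas1, Gm10036 and Hist1h1c had few UMIs, at most 16 UMIs in either mouse, and without set WT3_p3 the ratio of Zfas1 went from -1.54 to -0.61.

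The Lyz1/Ccr2 cells were also split by the presence of a Lyz1 UMI. Because Lyz1 is a gene of the rule, the differences between the parts describe the choice of cells as well. A Lyz1 UMI was present in 188 of 356 Bbs8-/- cells, 52.8% (47.5 to 58.1%), and in 59 of 111 Bbs8+/+ cells, 53.2% (43.4 to 62.7%), at like depths (medians of 342 and 338.5 UMIs with and without it in Bbs8-/-, and 355 and 314.5 in Bbs8+/+ cells). Cells with a Lyz1 UMI had far more Retnla, 10125 against 1257 CPM in Bbs8-/- and 23412 against 8905 CPM in Bbs8+/+ cells, and more Fn1, 3659 against 688 CPM in Bbs8-/- and 5042 against 1299 CPM in Bbs8+/+ cells. Lyz2 was 16460.5 against 3984 CPM in Bbs8-/- and 16712 against 9554 CPM in Bbs8+/+ cells, with the read sharing given above. For Ccl6 the log2 ratio, without a pseudocount, was 1.83 (1.45 to 2.22) in Bbs8-/- and 1.34 (0.75 to 1.97) in Bbs8+/+ cells, and for Cfp 1.82 (1.31 to 2.36) in Bbs8-/- and 1.02 (0.40 to 1.68) in Bbs8+/+ cells.

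The other 7 markers took part in the choice of the cells, so their levels are given as a description. Mpeg1 was 842 against 3106 CPM in Bbs8-/- and 529 against 2644 CPM in Bbs8+/+ cells, whereas Ear2 was 1025 against 213 CPM in Bbs8-/- and 1234 against 371 CPM in Bbs8+/+ cells and Fcrls 1727 against 605 CPM in Bbs8-/- and 2151 against 1113 CPM in Bbs8+/+ cells. Genes outside the rule differed as well. A cell without a Lyz1 UMI entered only through the other 7 markers, so the choice helps to set these values too. Ly6c2 was 43.2 against 664 CPM in Bbs8-/- and 35.3 against 417 CPM in Bbs8+/+ cells, from 4 against 56 and 1 against 9 UMIs (1 against 24 in Bbs8-/- cells without set KO5_p3), and Plac8 was 86.4 against 534 CPM in Bbs8-/- and 70.5 against 464 CPM in Bbs8+/+ cells. Irf8 was 216 against 1269 CPM in Bbs8-/- and 70.5 against 557 CPM in Bbs8+/+ cells. Siglech had 12 against 78 UMIs in Bbs8-/- and 0 against 9 UMIs in Bbs8+/+ cells, Flt3 had 2 against 19 UMIs and Xcr1, a receptor of cross-presenting dendritic cells, 0 against 8 UMIs in Bbs8-/- cells. The cDC1, mature and plasmacytoid dendritic cell list had a log2 ratio of -1.89 (-2.24 to -1.54) in Bbs8-/- and -1.51 (-2.40 to -0.67) in Bbs8+/+ cells. MHC class II was high in both kinds of cell, 31172 against 31645 CPM in Bbs8-/- and 20415 against 26947 CPM in Bbs8+/+ cells, and the lysosome list differed by 0.02 and 0.20. The T cell list was 1004 against 1008 CPM in Bbs8-/- and 317 against 510.2 CPM in Bbs8+/+ cells. The B cell list was 1770.2 against 1541 CPM in Bbs8-/- and 529 against 1345 CPM in Bbs8+/+ cells, log2 ratios of 0.20 (-0.14 to 0.54) in Bbs8-/- and -1.35 (-2.35 to -0.40) in Bbs8+/+ cells, and the part of B cell RNA in this split was not tested.

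**Figure D5:**
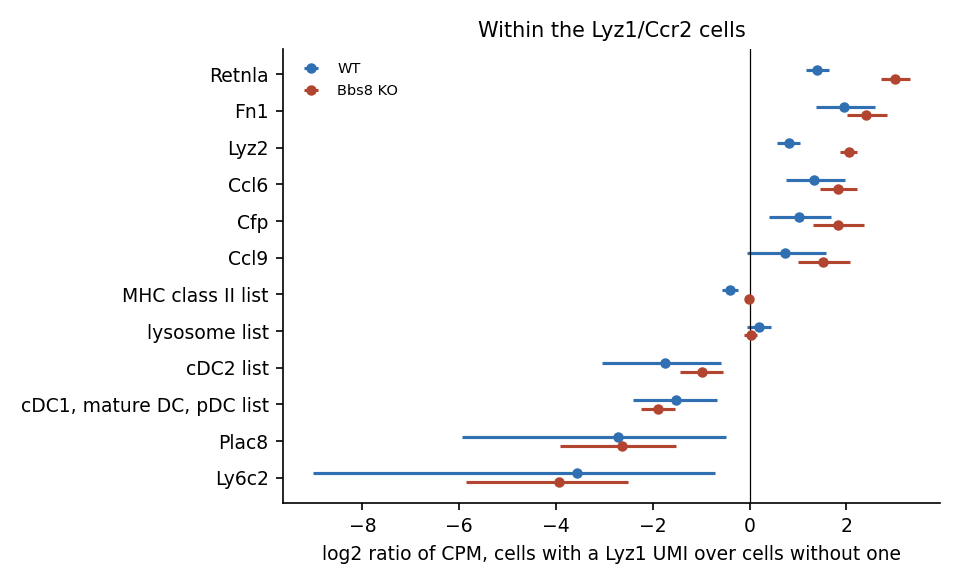
Log2 ratio of CPM in Lyz1/Ccr2 cells with a Lyz1 UMI over those without one, for 8 genes and 4 gene lists, blue for Bbs8+/+ and red for Bbs8-/-, with exact 95% counting intervals. Ly6c2 and Plac8 lie furthest to the left in both mice, and Fn1 lies to the right of 1 in both, while MHC class II and lysosome genes lie between -0.40 and 0.20.

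The genotype difference in Retnla was seen in both kinds of cell. In cells with a Lyz1 UMI Retnla had 10125 and 23412 CPM, a log2 ratio of -1.21 (-1.35 to -1.06) in Bbs8-/- and Bbs8+/+ cells, and in cells without one 1257 and 8905 CPM, a log2 ratio of -2.82 (-3.18 to -2.48). Lyz2 did not follow it: it had 16460.5 and 16712 CPM, a log2 ratio of -0.02 (-0.17 to 0.13) in cells with a Lyz1 UMI and 3984 and 9554 CPM, a log2 ratio of -1.26, in cells without one. Crip1 had a log2 ratio of -1.08 and -1.32, the cycling list -0.96 and -1.11, and MHC class II 0.61 and 0.23 in cells with and without a Lyz1 UMI. Whether the ratios differ between these kinds of cell beyond the spread between mice cannot be tested with 1 mouse per genotype.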

How the data were processed

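Single-cell transcriptomes of the stromal vascular fraction were analysed from 1 deposited table of raw UMI counts for 14623 genes and 10914 cells. As the study's methods state, reads were processed with bcl2fastq, dropSeqPipe and STAR on mm10 with GENCODE annotation, and cells with too few or too many genes or too many mitochondrial reads were removed; per the labels, Seurat was also used. Whether the authors' downsampling step preceded the deposited counts is not given in the sources used here, and the deposited cells had 101 to 994 genes each. Cells were grouped by KO or WT in the column names.

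The rule for the Lyz1/Ccr2 cells, the gene lists and the rule for named genes were chosen with earlier results of these data known. UMIs were summed per mouse and class and given as CPM with exact Poisson intervals, shares with Clopper-Pearson intervals, and ratios with exact conditional intervals (Python 3.11.15, scipy 1.17.1); list ratios have no pseudocount and gene ratios 50 CPM. With 1 mouse per genotype, no test was made; a log2 ratio of 1 either way was the fixed size. T cells and B cells had at least 2 UMIs of their list and passed neither the Lyz1/Ccr2 rule nor the resident macrophage rule. Igkc was left out when B cell UMIs were counted to class or to exclude a cell. Named genes were, outside rule, ribosomal, mitochondrial and sex-linked genes and Gm42418, the 15 most abundant, the 15 with the highest ratio to other cells by the lower of both mice, the 12 highest and lowest ratios to resident macrophages (same sign in both mice), the 12 highest and lowest genotype ratios (interval without 0, same sign without any 1 set), and list members with at least 10 UMIs; a few genes with fewer UMIs were named after their values were seen. Scaling alternatives used edgeR 4.0.16 (TMM) and DESeq2 1.42.0 (size factors). Interval coverage was checked only on simulated Poisson counts. These meet the assumption of the intervals and leave out the uneven spread of UMIs over cells in the real data.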

Additional observations from a re-analysis of the deposited data

Results flagged for a closer look

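Among the 5 barcode sets of each genotype, 72 groups of levels or shares were searched for a set that stands apart from the other 4, and 6 were found; chance alone picks about 1 in 20 groups. In Bbs8-/- Lyz1/Ccr2 cells, the mononuclear phagocyte list had 26932 CPM against 18377 to 20169 CPM in the other 4 sets (set KO5_p2), the list of cDC1, mature and plasmacytoid dendritic cell genes had 3421 CPM against 1576 to 2090.1 CPM in the other 4 (set KO5_p3), and the elongation factor gene Eef2 had 2637 CPM against 2136 to 2280.5 CPM in the other 4 (set KO6_p3). In Bbs8+/+ cells, set WT3_p3, which held 16 Lyz1/Ccr2 cells, had an interferon list level of 5776 CPM against 3209.8 to 3795 CPM in the other 4 and a lipid-associated list level of 2100.5 CPM against 4659 to 5673 CPM in the other 4, and Mpeg1 had 2168 CPM against 1225 to 1351 CPM in the other 4 in set WT4_p3, which held 17 cells.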

How the results depend on the processing

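Of 2604 values recomputed under other settings for 144 results, 2377 stayed within counting error or the spread over barcode sets, 227 moved beyond it and 12, of 4 results with ratios near 0, changed sign; 212 of those that moved were of single genes or the median gene. The sign changed for the genotype ratios of the lysosome list (-0.11, up to 0.06), the lipid-associated list (-0.09, up to 0.08) and the median gene (0.03, down to -0.01), and the Bbs8-/- ratio of the alternative activation list to resident macrophages (-0.03, up to 0.13). The share difference of all cells, -1.79 points, was -0.561 with a marker sum of at least 1, and -2.24 to -1.44 with 1 set left out; within myeloid cells that range was -13.3 to -8.06. DESeq2 size factors lowered the Bbs8+/+ log2 ratios to resident macrophages to 0.25 for mononuclear phagocyte, -1.01 for lysosome, -0.94 for interferon and 0.36 for annexin, galectin and S100 genes, since that scaling shifts ratios of this pair, with nothing added, by -0.37. TMM scaling and DESeq2 size factors shift the Bbs8+/+ ratios to all other cells by -0.39 and -0.36, and DESeq2 shifts the genotype ratios by 0.15. The Bbs8-/- ratio of the annexin, galectin and S100 list to resident macrophages was 0.59 with a marker sum of at least 3 and 0.57 without cells holding 2 T cell or B cell UMIs; the cause was not tested. The shares of genes past a log2 ratio of 1 and of -1, 6.63% and 3.56%, were 9.97% and 5.40% with at least 200 genes per cell, 12.9% and 7.32% with 10 CPM added, 2.83% and 1.71% with 100 CPM added, the second 2.09% over genes with at least 1 UMI, and 6.86 to 12.7% and 3.56 to 5.19% with 1 set left out, the highest without the largest Bbs8+/+ set, WT4_p2. The alternative without the cell with the most UMIs of a gene was added after the data were seen. No paired analysis was possible because no result comes from a test and each genotype is 1 mouse, and the numbers in the set names were not matched to those in the labels. The Bbs8+/+ depth of 49923 UMIs in the class limits genes below the bound of a count of 0.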

Other observations

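Further gene groups of the Lyz1/Ccr2 cells were described by their values. Batf3, a factor of dendritic cell development, was higher than in resident macrophages of both mice, with log2 ratios of 1.09 and 2.32 from 25 and 10 UMIs, whereas Spi1, the gene of PU.1, had -0.18 and 0.50. Zeb2 had a genotype ratio of -0.92 (-1.71 to -0.33). Of 13 Fc and pattern receptor genes, 5 were tested and 0 passed 1 in either direction, with Fcgr3 at 389.9 CPM in Bbs8-/- and 401 CPM in Bbs8+/+ cells and the beta-glucan receptor Clec7a at 237 CPM in Bbs8-/- and 240.4 CPM in Bbs8+/+ cells.

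Lpl, the lipoprotein lipase, had 808 CPM in Bbs8-/- and 381 CPM in Bbs8+/+ cells, a genotype ratio of 0.99 (0.39 to 1.86) inside the Lyz1/Ccr2 cells against -1.18 in all other cells. Cd36 (-1.13 and -1.62) and Apoe (-2.63 and -2.32) were lower than in resident macrophages of both mice, and Lgals3 (1.39 and 1.54) was higher. Among 15 cilium and Hedgehog genes in the table, 8 had no UMI in the class, and the list summed to 73.5 CPM in Bbs8-/- and 120.2 CPM in Bbs8+/+ cells, a log2 ratio of -0.71 (-2.21 to 0.97), so no difference was detectable at this depth. Ccl8, by contrast with Ccl6 and Ccl9, had 113 CPM in Bbs8-/- and 60.1 CPM in Bbs8+/+ cells against 1417 and 1368 CPM in resident macrophages.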
